A study of Mus musculus with 17 samples.

Results

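Sgcb, which encodes beta-sarcoglycan, and Lrrc66, which encodes a leucine-rich repeat protein, lie next to each other on mouse chromosome 5 and were measured here in whole hearts. They are 2 of the 41096 genes in the deposited count table, where they are listed only by ID, as MGP_C57BL6NJ_G0030059 and MGP_C57BL6NJ_G0030058. The pair was selected on the readout itself: same-strand neighbours of which the first was almost lost and the second gained in every heart labelled bsg. Differences between bsg and WT in these 2 genes are therefore given as a description, with no test. Of the pair, 2 of 2 passed the filter on low counts, and Lrrc66 passed only through the bsg libraries.

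The hearts came from mice aged 4 months on a C57BL/6 background, in 4 groups: the wild type (WT), with 4 females and 3 males, and bsg, with 5 of each sex. The study title speaks of a genetic cardiomyopathy, and the labels do not state the allele behind bsg or its targeted exons. The labels' background strain is the same for both genotypes. The titles of WT and bsg libraries carry different prefixes, whose meaning is not stated. An effect of breeding line or of linked DNA was not tested apart from that of genotype. Total RNA, depleted of ribosomal RNA, was sequenced as stranded libraries of 13886399 to 17554850 assigned fragments (median 15736903).

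Sarcoglycans are single-pass membrane proteins of heart and skeletal muscle. Beta-sarcoglycan assembles with other sarcoglycans, among them alpha- and delta-sarcoglycan, into a subcomplex of the dystrophin-glycoprotein complex, which links the actin cytoskeleton through dystrophin and dystroglycan to laminin outside the cell. Loss of beta-sarcoglycan causes a limb-girdle muscular dystrophy that often includes cardiomyopathy. Much less is known of Lrrc66, and no role in the heart is stated for it here.

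The names rest on gene structure, since the IDs of this assembly (C57BL_6NJ_v1) are not paired with symbols in the table. MGP_C57BL6NJ_G0030059 (chromosome 5, 76681878 to 76696974, minus strand) has 7 exon entries of 116, 210, 463, 186, 192, 132 and 2950 bp from 5′ to 3′. All 7 lengths are identical to the exons of Sgcb in GENCODE M21 (GRCm38). The 463 bp entry is a single-exon transcript of Sgcb that overlaps the 210 bp exon. MGP_C57BL6NJ_G0030058 (chromosome 5, 76655452 to 76681655, minus strand) has 7 entries of 136, 40, 335, 480, 170, 190 and 2222 bp, and all 7 are identical to those of Lrrc66. The 335 and 480 bp entries overlap. The same matching named 17902 genes of the table, of which 8368 had every exon length identical.

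Sgcb spans 15097 bp and Lrrc66 26204 bp, and 222 bp lie between the last exon of Sgcb and the first exon of Lrrc66. Both are annotated on the minus strand, with Sgcb upstream of Lrrc66. The merged exonic length is 4052 bp for Sgcb and 3238 bp for Lrrc66. Of the other rows of the table, 1 overlaps the pair on the same strand: MGP_C57BL6NJ_G0001719, a single exon of 579 bp in the first intron of Sgcb, with 0 counts in WT and 4 counts in bsg.

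**Figure D1:**
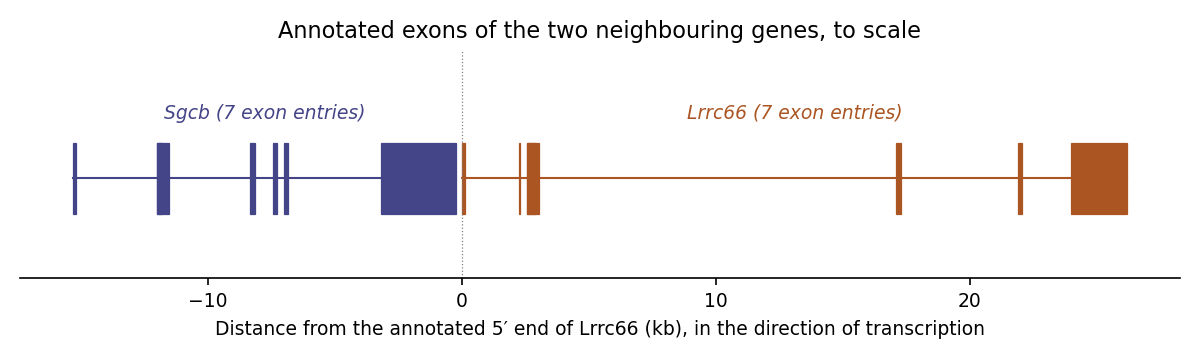
Exons of Sgcb (left) and Lrrc66 (right) as boxes drawn to scale against the distance in kb from the annotated 5′ end of Lrrc66, with transcription from left to right. The long last exon of Sgcb ends 222 bp before Lrrc66 begins.

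The DNA just upstream of each annotated start is shown because 1 of these stretches separates the 2 genes. Both are printed on the minus strand, 5′ to 3′, from RefSeq's GRCm38.p6 start windows, cut where the GENCODE transcript begins. The 2 members both had a match in that promoter table. Capitals mark the letters TATAAA of the core promoter element, the letters CCAAT of the box named for them, or the letters GGGCGG of the Sp1-type box, on either strand. The Sgcb stretch is chr5:73647791-73647987 (197 bases), and the Lrrc66 stretch is chr5:73632527-73632671, which is 145 of the 222 bases between the genes.
Sgcb: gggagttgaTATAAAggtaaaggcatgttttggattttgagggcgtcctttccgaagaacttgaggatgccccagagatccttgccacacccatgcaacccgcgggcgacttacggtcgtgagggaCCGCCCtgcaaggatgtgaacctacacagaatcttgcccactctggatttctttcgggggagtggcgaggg
Lrrc66: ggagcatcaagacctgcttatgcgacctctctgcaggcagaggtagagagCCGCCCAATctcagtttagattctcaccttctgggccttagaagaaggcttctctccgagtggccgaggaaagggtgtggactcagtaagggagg
Both stretches were about equally rich in G and C (54.8% and 55.2%), with 10 CpG dinucleotides in the Sgcb stretch and 4 in the Lrrc66 stretch. On both strands, TATAAA matched once in the Sgcb stretch, 188 bases upstream of the start, and 9.05% of 32851 RefSeq windows of that length and position held it. GGGCGG matched once in each: 71 bases upstream of Sgcb (24.1% of windows) and 95 bases upstream of Lrrc66 (15.98%). CCAAT matched once upstream of Lrrc66, at 91 bases (19.3%), overlapping the GGGCGG match, and 0 times upstream of Sgcb (27.9%). CANNTG, the E-box letters, matched 0 times in either (58.6% and 48.1% of windows hold it). These are matches of letters, not measured binding sites. At the other end of Sgcb, the letters AATAAA of the common polyadenylation signal begin 22 bases before the end of its multi-exon transcript, while the last 50 bases of the Lrrc66 transcript do not hold them. Of 141672 annotated transcripts, 26.6% hold them in the last 50 bases.

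Before the levels, 3 libraries need naming. WT female replicate 2, WT male replicate 2 and bsg female replicate 2 lay apart from the other 14 on the first principal component of all genes (scores of 51.8, 29.0 and 74.9, against at most 14.4). The labels' tissue was checked against its markers. All 5 cardiomyocyte genes (Myh6, Tnnt2, Actc1, Tnni3 and Ryr2) were abundant, with a summed level of 42069 to 51959 CPM in WT and 39999 to 51697 CPM in bsg hearts. Between the genotypes 0 of 5 were called, where 4.26% of all tested genes were called. CPM is the count per 1000000 fragments of the TMM-scaled library total, and differences are called at a Benjamini-Hochberg adjusted p under 0.05 in edgeR's quasi-likelihood test.

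Sgcb was an abundant transcript in every WT heart. The 4 WT females had 234, 205.6, 239 and 235 CPM (replicates 1 to 4), from 3713, 3167, 3703 and 3624 counts. The 3 WT males had 230, 203.8 and 211 CPM, from 3404, 2998 and 3554 counts. WT hearts thus spanned 203.8 to 239 CPM, and the sexes overlapped. The lowest female and the lowest male were 2 of the libraries that lay apart.

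In bsg hearts Sgcb was reduced to a small remainder that was present in all 10. The 5 bsg females had 4.41, 4.18, 4.57, 6.01 and 5.46 CPM, from 71, 77, 71, 93 and 85 counts. The 5 bsg males had 6.12, 5.21, 6.18, 5.10 and 4.73 CPM, from 104, 82, 97, 80 and 64 counts. The lowest bsg heart, bsg female replicate 2 (4.18 CPM), was another of the libraries that lay apart. The highest bsg heart (6.18 CPM) lay far below the lowest WT heart (203.8 CPM).

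The means were 223 ± 15.1 CPM in WT (SD, n = 7) and 5.20 ± 0.733 CPM in bsg (SD, n = 10), so the mean in bsg was 2.33% of that in WT. Summed over libraries, 24163 counts in WT and 824 in bsg gave a ratio of 42.9 after scaling, with an exact Poisson interval of 40.02 to 46.03 that covers counting error only. The fitted log2 fold change of Sgcb was -5.41 (SE 0.07), the lowest of the 15013 tested genes. Of these genes, 639 were called between bsg and WT averaged over sex (4.26%), both members among them, as the way the pair was selected fixes. Without WT male replicate 3 the number called was 318, and with libraries summed by title number it was 241. Without the 3 libraries that lay apart the log2 fold change of Sgcb was -5.43. In whole-heart RNA, fewer cells with the transcript and less of it per cell cannot be told apart. The table has 1 count per gene, so the exons from which the remaining Sgcb fragments came were not analysed here.

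Lrrc66 showed the reverse pattern, from a floor near 0. Over the 7 WT hearts 2 fragments were counted: 1 in WT male replicate 1 and 1 in WT male replicate 2, with 0 in the 4 females and the third male. In a WT library of this depth, 0 counts allow a level of up to 0.178 to 0.2039 CPM (3 counts), for counting error only. The 5 bsg females had 35.9, 34.2, 30.9, 28.5 and 39.5 CPM, from 579, 629, 481, 441 and 615 counts. The 5 bsg males had 32.2, 36.6, 34.9, 37.2 and 31.2 CPM, from 547, 577, 548, 584 and 422 counts. The transcript was at 422 counts or more in every bsg heart and at 0 or 1 in every WT heart.

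Of the 3 libraries that lay apart, the 2 from WT had 0 and 1 count and bsg female replicate 2 lay close to the bsg mean. That mean was 34.1 ± 3.38 CPM (SD, n = 10). The ratio of the summed counts, 5423 in bsg to 2 in WT, was 1854 after scaling, with an exact Poisson interval of 513 to 15310, so its size is known only roughly. Lrrc66 was the only gene of the table with at most 3 counts over all WT hearts and at least 1 CPM in every bsg heart, and 0 genes had the reverse pattern. The genes nearest to these limits show how steep the selection was. Of the tested genes at least 20-fold lower in bsg without overlap there were 2, Sgcb and the unnamed MGP_C57BL6NJ_G0006541 on chromosome 4 (348 counts in WT, 20 in bsg). Of those at least 20-fold higher there were also 2, Lrrc66 and the unnamed MGP_C57BL6NJ_G0013752 on chromosome 6 (0 counts in WT, 131 in bsg).

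**Figure D2:**
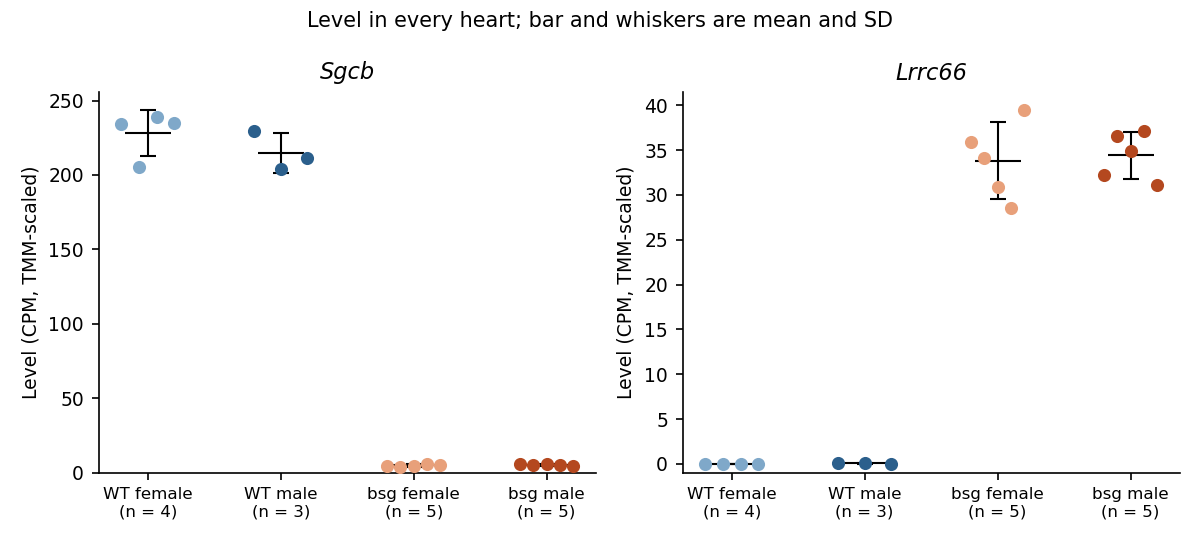
Level of Sgcb (left) and Lrrc66 (right) in each of the 17 hearts, in CPM on linear axes that differ between the panels, by genotype and sex, where points are hearts and the bar and whiskers are the group mean and SD. Sgcb lies at 203.8 CPM or more in WT and at 6.18 CPM or less in bsg, and Lrrc66 lies near 0 in WT and at 28.5 to 39.5 CPM in bsg.

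Because the genes differ in length, their levels were compared as CPM per kb of exonic length. Sgcb stood at 54.9 ± 3.73 CPM per kb in WT (SD, n = 7), above 93.8% of tested genes, and at 1.28 ± 0.181 in bsg (SD, n = 10), above 24.3%. Lrrc66 stood at 10.5 ± 1.04 CPM per kb in bsg (SD, n = 10), above 70.6% of tested genes. On this scale Lrrc66 in bsg reached 19.2% of the level of Sgcb in WT, so the 2 changes were far from equal in size. The difference between genotypes was 217 CPM for Sgcb and 34.1 CPM for Lrrc66, and per kb the rise of Lrrc66 was 19.6% of the fall of Sgcb.

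Within bsg hearts, Lrrc66 exceeded Sgcb in 10 of 10, by 8.22-fold per kb on average. Of the fragments assigned to the pair, 82.6% to 89.1% fell on Lrrc66 in bsg hearts, with a mean of 86.7% ± 2.17 (SD, n = 10). The lowest share was in bsg female replicate 4 (82.6%, 95% Wilson interval 79.1 to 85.6) and the highest in bsg female replicate 2 (89.1%, 86.6 to 91.2). Those 2 intervals do not overlap. In WT the highest share was 0.0333% (WT male replicate 2, 95% Wilson interval 0.00589 to 0.189). The intervals cover counting error only, since fragments without molecular identifiers are not independent molecules.

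The spread between hearts was small for both genes. For Sgcb the coefficient of variation was 6.79% in WT, where counting alone would give 1.70%, and 14.1% in bsg, where counting alone would give 11.02%. Most of the spread of the remaining Sgcb in bsg is thus of the size that counts of 64 to 104 bring with them. For Lrrc66 in bsg it was 9.91%, against 4.29% from counting.

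The selection did not use the sex of the animals, so sex differences were tested, on the log2 scale as male minus female. Sgcb did not pass the test in WT hearts, where females averaged 228 ± 15.3 CPM (SD, n = 4) and males 215 ± 13.2 CPM (SD, n = 3). The difference was -0.09 (SE 0.09, 95% interval -0.29 to 0.11, edgeR adjusted p = 0.993), against 9 genes called in this comparison (0.0599% of 15013). In bsg hearts the remaining Sgcb averaged 4.93 ± 0.778 CPM in females and 5.47 ± 0.649 CPM in males (SD, n = 5 each), and the groups overlapped. That difference was 0.16 (SE 0.10, 95% interval -0.06 to 0.38, edgeR adjusted p = 0.523), with 14 genes called (0.0933%).

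Lrrc66 in bsg averaged 33.8 ± 4.29 CPM in females and 34.4 ± 2.66 CPM in males (SD, n = 5 each). The difference was 0.03 (SE 0.10, 95% interval -0.18 to 0.23, edgeR adjusted p = 0.927), and the range of the males lay within that of the females. Its sign turned when bsg male replicate 4, bsg female replicate 3 or bsg female replicate 4 was left out (-0.00411, -0.00699 and -0.0294). In WT the fit called no sex difference for this gene (edgeR adjusted p = 0.938), and with 2 counts in all nothing can be read from it.

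Whether the loss of Sgcb differed between the sexes was tested as an interaction. The log2 fold change was -5.29 in males and -5.54 in females, a difference of 0.25 (SE 0.14, 95% interval -0.05 to 0.54, edgeR adjusted p = 0.888). For the interaction 0 genes were called (0%) in edgeR, and 776 had an unadjusted p under 0.05. The intervals do not show that the sexes are alike. Without the 3 libraries that lay apart the values were -0.11 for sex in WT, 0.10 for sex in bsg and 0.21 for the interaction, and none passed the test.

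Within the bsg hearts, Sgcb and Lrrc66 were not seen to vary together or against each other. Pearson's r of their log2 CPM was -0.11 (permutation p = 0.758) and Spearman's rho was 0.02 (permutation p = 0.973) over 10 hearts. As 1 relation was computed, adjusted and raw p are the same. Without the 2 hearts farthest from the median of Sgcb r was -0.18 (n = 8), centred within each sex it was -0.17, and without bsg female replicate 4 it was 0.17. The 10 hearts span a narrow range of both genes, and counting error takes up much of that of Sgcb.

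**Figure D3:**
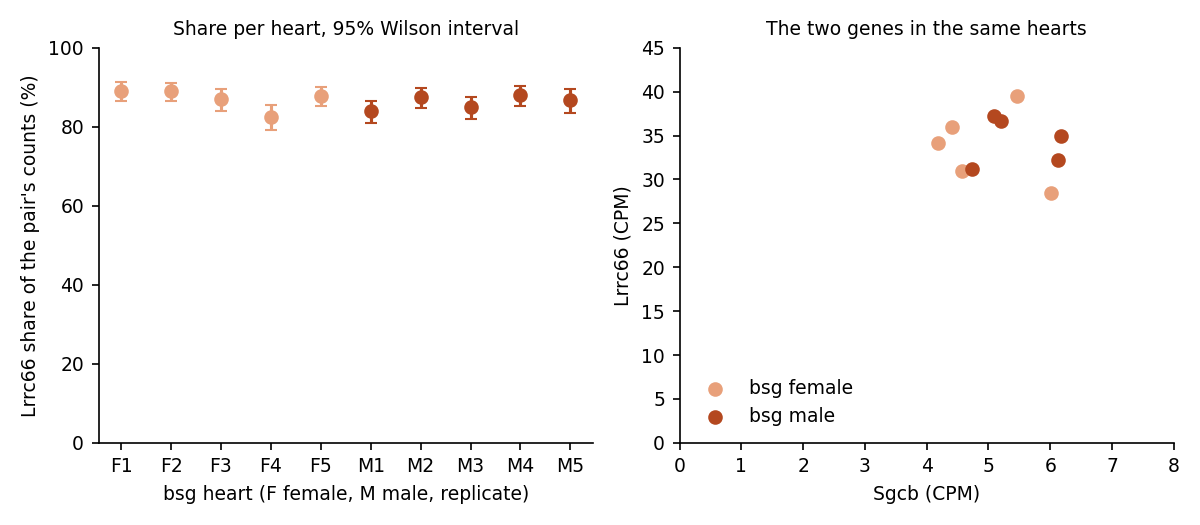
Left, share of the pair's counts assigned to Lrrc66 in each bsg heart in percent, with 95% Wilson intervals. Right, Lrrc66 against Sgcb in CPM in the same 10 hearts, where the points, females and males mixed, show no trend (r = -0.11).

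The partners of beta-sarcoglycan were examined next, since the selection of the pair did not use them. Of 18 genes reported for the dystrophin-glycoprotein complex and its glycosylation, 15 were matched by exon structure (Sspn, Sntb2 and Cav3 were not) and 14 passed the filter. Besides Sgcb itself, 0 of 13 were called between bsg and WT by edgeR, where 4.26% of all tested genes were called. DESeq2 and limma-voom also called 0 of them, and 0 had an unadjusted p under 0.05 in edgeR. The median log2 fold change of the 13 was 0.02, beside -0.003 over all tested genes, with 7 values above 0 and 6 below.

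Of the other sarcoglycan transcripts reported here, 0 of 3 tested passed the test, where 4.26% of all tested genes did. Sgca, alpha-sarcoglycan, stood at 132 CPM in WT and 127 CPM in bsg (log2 fold change -0.06, SE 0.05, 95% interval -0.17 to 0.04). Sgcd, delta-sarcoglycan, stood at 25.4 and 26.2 CPM (0.07, SE 0.15, -0.24 to 0.39), and its wider interval follows its larger spread between hearts. Sgce, epsilon-sarcoglycan, an alpha-sarcoglycan homologue found in many tissues, stood at 22.5 and 23.9 CPM (0.09, SE 0.07, -0.07 to 0.24). Sgcz, zeta-sarcoglycan, was near 0, with 3 counts over all WT hearts and 4 over all bsg hearts, and was not tested.

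Per kb of exonic length, the order of these genes in WT was Sgca (76.2 CPM per kb, range 68.3 to 84.7), Sgcb (54.9, 50.3 to 59.0), Sgcd (3.08, 2.23 to 4.67) and Sgce (2.12, 1.80 to 2.35). Sgca and Sgcb did not overlap, while Sgcd and Sgce did. In bsg, Sgcb stood last of these 4 at 1.28 CPM per kb (1.03 to 1.52), below Sgce at 2.25 (1.96 to 2.79). Merged exonic length understates the level of genes with many alternative exons.

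None of the other members reported here passed the test, where 4.26% of all tested genes did. Dmd, which encodes dystrophin, stood at 181 CPM in WT and 184 CPM in bsg (0.02, SE 0.11), and its autosomal homologue Utrn, utrophin, at 120 and 116 CPM (-0.05, SE 0.08). Dag1, dystroglycan, stood at 599 and 617 CPM (0.04, SE 0.06), and Lama2, the laminin chain that dystroglycan binds, at 148 and 151 CPM (0.02, SE 0.07). The cytoplasmic member Dtna, a dystrobrevin, gave -0.08 (SE 0.06). Nos1, the neuronal nitric oxide synthase, gave -0.61 with an SE of 0.73, so little can be read from it, and it was 0.16 without WT female replicate 3.

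Of the enzymes that glycosylate dystroglycan, Pomt1 stood at 18.8 CPM in WT and 19.03 CPM in bsg (log2 fold change 0.02, SE 0.05). Pomt2 stood at 23.1 and 23.3 CPM (0.02, SE 0.06).

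**Figure D4:**
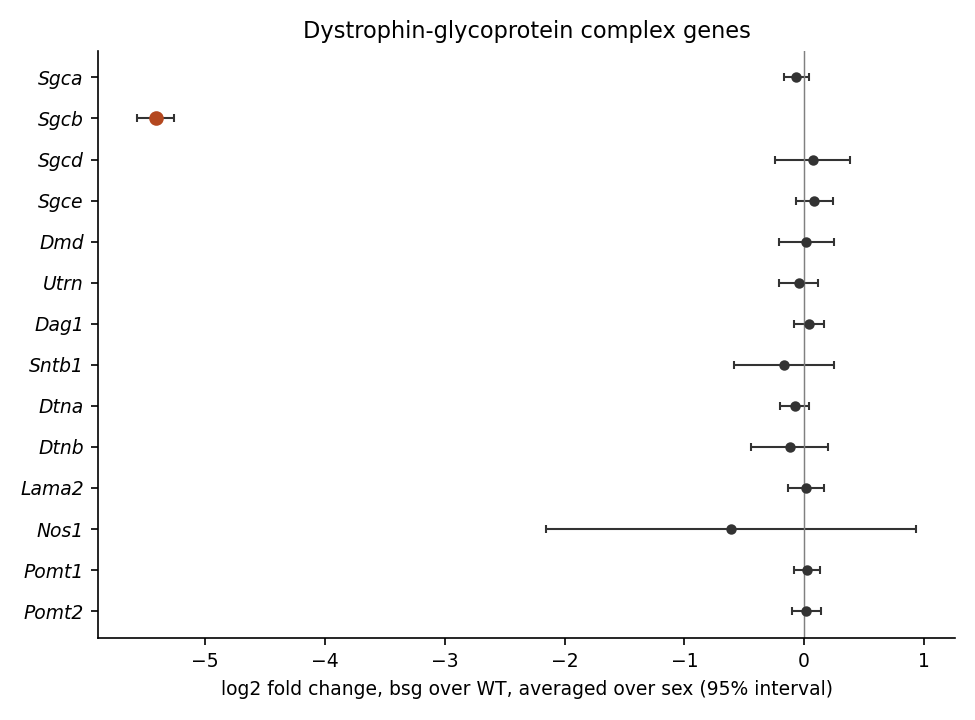
Log2 fold change of bsg over WT, averaged over sex, for 14 tested genes of the dystrophin-glycoprotein complex, as points with 95% intervals. Sgcb (red) lies at -5.41, while the other 13 lie between -0.61 and 0.09, Nos1 having the widest interval.

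The letters of the genotype label also spell the symbol of another gene, Bsg, which encodes basigin, and it was looked up for that reason after the pair's values were known. Bsg stood at 1257 ± 118 CPM in WT (SD, n = 7) and 1448 ± 115 CPM in bsg hearts (SD, n = 10). The log2 fold change was 0.20 (SE 0.06, edgeR adjusted p = 0.0587), and it did not pass the test in edgeR but did by DESeq2, without WT female replicate 4 or without bsg female replicate 2 (adjusted p = 0.0128, 0.0167 and 0.0485). The lowest bsg heart had 1276 CPM, and the ranges of the genotypes overlapped.

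The genes around the pair were described by position. On the side of the Lrrc66 end, the nearest tested gene was Dcun1d4, 60554 bp away, at 23.7 CPM in WT and 24.5 CPM in bsg (log2 fold change 0.04, SE 0.05, edgeR adjusted p = 0.736). Ociad2, 306381 bp away, rose from 5.36 ± 1.32 to 15.98 ± 2.55 CPM (1.56, SE 0.13, edgeR adjusted p = 7.21e-07). Ociad1, 333552 bp away, rose slightly, from 183 ± 9.63 to 207.6 ± 11.9 CPM (0.18, SE 0.04, edgeR adjusted p = 0.0205). The call of Ociad1 was lost in 4 of 25 alternatives: without WT male replicate 2 or WT male replicate 3, without the 3 libraries that lay apart, and with libraries summed by title number (adjusted p = 0.0592, 0.0704, 0.0508 and 0.213). The nearest neighbour on this side was thus not called, and the next 2 were, where 4.26% of all tested genes were called.

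On the side of the Sgcb start, Spata18 begins 3588 bp away on the opposite strand and had few counts, 35 over the WT hearts and 132 over the bsg hearts (log2 fold change 1.21, SE 0.74, edgeR adjusted p = 0.424). Usp46, 367951 bp away, stood at 47.9 and 55.4 CPM (0.20, SE 0.14, edgeR adjusted p = 0.486). The third was the unnamed single-exon gene MGP_C57BL6NJ_G0001723, 575718 bp away (-0.02, SE 0.31). On this side 0 of 3 were called, beside 4.26% of all tested genes. A difference between the sides was not tested.

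A list of 8 genes of the locus, all matched, adds Scfd2, Rasl11b and Fip1l1. Of the 6 besides the pair, 1 was called, where 4.26% of all tested genes were. It was Scfd2, which rose from 13.7 to 17.95 CPM (log2 fold change 0.41, SE 0.05, edgeR adjusted p = 0.000347). Rasl11b gave 0.07 and Fip1l1 0.04. The 6 values were all above 0, with a median of 0.13. Those of Dcun1d4, Rasl11b and Fip1l1 lay within 1 SE of 0, and Spata18 had few counts. The shared sign was not tested.

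Neighbouring genes called in opposite directions were counted. Only 4.26% of all tested genes were called, so few pairs can have both genes called. Among 377 pairs of tested same-strand neighbours at most 1 kb apart, 2 pairs had both genes called, and 1 of these had opposite directions, the pair of Sgcb and Lrrc66. With a gap of at most 10 kb there were 2451 pairs, of which 5 had both genes called and the same 1 had opposite directions. Since the pair was selected for this pattern, the count places it and tests nothing.

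The genes whose levels followed the pair most closely were named by Pearson's r of log2 CPM over the 17 libraries, among 13602 genes of sufficient level. The libraries share the 2 genotypes, so a high r mostly reflects a difference between bsg and WT. Sgcb and Lrrc66 themselves had r = -0.997. The gene most like Sgcb was Scarb2 (r = 0.984), a lysosomal membrane protein gene also on chromosome 5, at 311 ± 9.47 CPM in WT (SD, n = 7) and 190 ± 9.46 CPM in bsg (SD, n = 10). Next to Lrrc66 stood the unnamed MGP_C57BL6NJ_G0006203 on chromosome 2 (r = 0.982), at 1.15 ± 0.341 CPM in WT (SD, n = 7) and 10.96 ± 1.43 CPM in bsg (SD, n = 10).

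Markers of other cell types were read in the same hearts, where 4.26% of all tested genes were called. Of 3 fibroblast genes 1 was called, the collagen gene Col1a1, from 137 to 179 CPM (log2 fold change 0.40, SE 0.11, edgeR adjusted p = 0.0436), a call lost in 14 of 25 alternatives with adjusted p of up to 0.0952. Dcn gave 0.03 (SE 0.07) and Pdgfra 0.006 (SE 0.06). The summed level of the 3 fibroblast genes was 930 to 1162 CPM in WT and 967 to 1270 CPM in bsg. Of 3 macrophage genes 1 was called, Adgre1, from 20.3 to 25.5 CPM (0.31, SE 0.07, edgeR adjusted p = 0.0206), a call lost without WT male replicate 3 (adjusted p = 0.0704), with a summed level of 82.1 to 131 CPM in WT and 92.8 to 131 CPM in bsg. Of the endothelial (3), smooth muscle (2) and skeletal muscle (3) genes, 0 were called by edgeR. Kdr, an endothelial receptor, came nearest (-0.21, SE 0.06, edgeR adjusted p = 0.0585) and passed by DESeq2 and without WT female replicate 2 or WT female replicate 4 (adjusted p = 0.0159, 0.042 and 0.0443). Kdr and the fibroblast gene Pdgfra (0.006) both lie on chromosome 5, as the pair does. The other endothelial genes lay above 0, Pecam1 at 0.09 (SE 0.05) and Cdh5 at 0.04 (SE 0.06). The other macrophage genes gave 0.29 (Cd68, SE 0.15) and 0.16 (Csf1r, SE 0.07), so that all 3 values of that list, averaged over sex, were above 0. In females Adgre1, Cd68 and Csf1r gave 0.52, 0.49 and 0.33, and in males 0.10, 0.10 and -0.009. The interaction of sex and genotype was called for 0 genes. Of the smooth muscle genes, Tagln gave 0.31 (SE 0.19) and Myh11 0.09 (SE 0.14). Of the skeletal muscle genes, Acta1 stood at 537 CPM in WT and 299 CPM in bsg (-0.53, SE 0.49), Myh4 at 0.427 and 1.16 CPM (2.10, SE 1.72) and Ckm gave 0.14 (SE 0.06). The large SE of Acta1 and Myh4 leave wide intervals. Single hearts weigh heavily in their means, so the directions are not read. The highest WT heart had 2562 CPM of Acta1, and the highest bsg heart had 9.94 CPM of Myh4. The summed level was 637 to 803 CPM in WT and 623 to 733 CPM in bsg for the endothelial genes, 76.7 to 169 and 97.1 to 206.2 CPM for smooth muscle, and 2251 to 4604 and 2192 to 3331 CPM for skeletal muscle. The part of cell makeup in the pair's levels was not tested.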

How the data were processed

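RNA of 17 mouse hearts was measured, and genotype and sex, as labelled, defined the groups. The authors deposited raw counts of fragments per gene, made, per the file headers, with featureCounts 1.6.2 (paired fragments, minimum mapping quality 10, strand setting 2) on the Ensembl release 109 annotation of C57BL_6NJ_v1. The submitters' processing notes name GRCm39, DESeq2 and Subread, and coordinates here are those of the table. The aligner is not given in the sources used here. Counts hold 1 value per gene, so exons and junctions, within a gene or between the 2 neighbours, were not analysed here. The column of exonic length, another value per the file headers, was used only to express CPM per kb.

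IDs were given GENCODE M21 symbols by exon structure: at least 2 shared exon length and spacing links, best in both directions, in genome order. Of 41096 IDs, 26777 had 2 or more exons and 17902 were named. Genes were filtered with edgeR's filterByExpr (minimum count 10, minimum total count 15), scaled by TMM, and fitted in edgeR 4.0.16 (R 4.3.3) by quasi-likelihood with 1 mean per genotype and sex over all 17 libraries. Tests were two-sided and Benjamini-Hochberg adjusted over 15013 genes. SE was obtained by dividing the size of the log2 fold change by the root of F. The procedure was tested on simulated data. The correlation within the bsg hearts used log2 CPM without a prior count and 100000 permutations. Correlations over the 17 libraries used log2 CPM with a prior count of 2 and were not tested. Genes named were the pair, the lists, the 3 nearest tested genes on each side and the gene most like each member. Some genes of the lists are not reported here. The members and lists were chosen with earlier results of these data known. The alternatives run were other scaling (RLE, upper-quartile), other filters (none, or 3 libraries with a CPM above 1), other tools (limma-voom of limma 3.58.1, and DESeq2 1.42.0), left-out libraries and sums by title number. The design text speaks of 3 to 4 biological replicates in a group, while the labels give 5 libraries in each bsg group. Each title holds a title number, whose meaning is not stated, and a second number that differs between libraries sharing the first. There are 3 title numbers in the 4 WT females, 2 in the 3 WT males, 2 in the 5 bsg females and 3 in the 5 bsg males. The labels do not state whether all libraries are separate animals, so this is unknown, and p-values measure the spread between libraries. No pair of libraries of one group agreed within sampling noise.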

Additional observations from a re-analysis of the deposited data

Results flagged for a closer look

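Of 7 sets of values of the pair checked for a stray library, 1 was flagged. Sgcb in WT female replicate 2 was 205.6 CPM, while the other 3 WT females lay between 234 and 239 CPM, so the gap took up 0.859 of the range of the group. Chance flags about 1 in 20 such groups. This library is 1 of the 3 that lay apart over all genes.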

How the results depend on the processing

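No paired analysis was possible because replicate numbers were given in accession order and the title numbers lie within single groups. The 3 sex differences and the interaction of Sgcb stayed uncalled under all alternatives run, with edgeR, DESeq2 or limma adjusted p of 0.305 or more. The sex difference of Lrrc66 in bsg ranged from -0.0294 to 0.0873 when 1 library was left out, and the correlation of the pair in bsg from -0.23 to 0.17. The share of Lrrc66 in the pair was 89.1% per kb of exonic length. The number of genes called between bsg and WT, 639, was 241 with libraries summed by title number, 318 to 686 with 1 library left out (318 without WT male replicate 3) and 944 by DESeq2. Of 619 values of 25 single genes under the alternatives, 594 kept their side of the threshold and 25 did not, those of Ociad1, Col1a1, Adgre1, Kdr and Bsg. The sign turned in 15 values, of 6 genes of the complex list whose change was never called. With 1 library left out their log2 fold changes ranged from -0.00505 to 0.169 (Sgcd), -0.0406 to 0.118 (Dmd), -0.0955 to 0.0113 (Utrn), -0.0239 to 0.0815 (Lama2), -1.39 to 0.159 (Nos1) and -0.00763 to 0.0394 (Pomt2). Without the 3 libraries that lay apart Dmd was -0.0171 and Pomt2 -0.0163. The alternatives for single genes other than the pair were added after the data were seen. Spata18 had a value in only 19 of the 25 alternatives, and it had no adjusted p in DESeq2. Depth limits the remaining Sgcb in bsg (64 to 104 counts) and Lrrc66 in WT (0 or 1 count).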
